A study of Mus musculus with 12 samples.

Results

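The outer bulge wells described here are 78 of 1906 single cells from mouse back skin whose ribosome-protected fragments carried the outer bulge genes Postn, Cd34, Ltbp2, Il31ra and Myoc. A well was taken when those 5 genes together had at least 3 counts and at least 0.5% of the well's counts, and when Krt79, Krt17 and Cst6, genes of the upper hair follicle, together stayed below 1%. The wells were thus chosen by the measured levels of these 8 genes, which are given below as a description only.

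The cells came from female C57Bl/6 mice, named here by postnatal day: 3 young animals (P57, P59 and P60) and 3 old animals (P662, P722 and P758). All mice, young and old, received cycloheximide, which arrests elongating ribosomes, in the tail vein before death. The epidermis was lifted off with trypsin, and live single cells were sorted into 384-well plates, 5 plates of old and 5 of young skin. Another plate held cells sorted without Sca-1 from young and old skin together and was kept apart. Each plate holds cells of a single postnatal day, so plates that share one were counted as 1 animal. Footprint counts reflect both the amount of an mRNA and how many ribosomes sit on it, and without matched mRNA measurements these cannot be told apart.

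The bulge is the lower permanent part of the hair follicle, where stem cells rest between rounds of hair growth. Its outer layer touches the basement membrane and is known for CD34 and keratin 15, for transcription factors such as SOX9, LHX2, TCF7L1 and NFATC1, and for secreted antagonists that hold Wnt and BMP signalling in check. Interfollicular basal cells, in contrast, renew the epidermis between follicles, and the upper follicle (infundibulum and junctional zone) lines the opening of the hair canal.

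Depth was low and uneven. The member wells held 176 to 6927 counts (median 689) and 88909 in all. Their sums were 1805 counts in P662 (5 wells), 631 in P722 (2 wells), 33633 in P758 (32 wells) and 52840 in P60 (39 wells). Levels are in CPM, the counts of a gene divided by the summed counts of a class of wells in 1 animal and scaled in the usual way, so that 1 count equals 554 CPM in P662, 29.7 in P758 and 18.9 in P60. A P662 level between 554 and 2216 therefore rests on 1 to 4 counts. Well barcodes recur by design (383 of 384 were used on more than 1 plate), so they do not mark shared cells. No doublet caller was run.

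Among the genes of the rule, Postn, which encodes the matrix protein periostin, supplied 69.3% of the 1220 rule counts and was present in all 78 wells. Its level in the member wells was 9418 CPM in P662, 22187 in P722, 8950 in P758 and 9727 in P60, while in the other wells it was 131, 0, 249 and 128. Cd34, a surface sialomucin, had 88 counts in 30 wells, with 416 CPM in P758, 1400 in P60 and none in P662 or P722. Ltbp2, a microfibril protein, had 92 counts in 33 wells, and Il31ra, a cytokine receptor subunit, had 79 counts in 39 wells. Myoc, the secreted glycoprotein myocilin, had 115 counts in 12 wells, of which 1 well held 47. It was at 0 of 33633 counts in P758, which allows up to 110 CPM by counting error. At least 3 of the 5 genes were seen in 35 wells, and 20 wells passed on Postn alone.

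Of the 3 upper follicle genes that the rule capped, Krt17, a stress and appendage keratin, had 137 counts in 26 member wells, or 1541 CPM against 937 in the other wells. By animal it was at 2216 CPM in the P662, 2022 in the P758 and 1192 in the P60 members, against 1338, 462 and 1064, so that members with some Krt17 were kept. Krt79 had 34 counts in 2 member wells, both of P758, where it was at 1011 CPM against 845, and it was at 0 in the members of the other animals. Cst6, a cystatin, had 1 count.

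The deepest of all member wells, from P758, held 33 of those 34 Krt79 counts, 31 of the Krt17 counts and the single Cst6 count, 0.938% of its counts, just under the cap of 1%. It had 6927 counts, 20.6% of the P758 sum, and passed on 42 Postn counts with none of Cd34, Ltbp2, Il31ra or Myoc. Sox9 and Lhx2 were at 0 in it, and it held 37 of the 46 Alox12e counts in members. Without it the P758 members had Krt79 at 37.4 CPM and Krt17 at 1385 CPM. The comparisons below are given with this well, and the calls without it follow their counts.

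The rule genes made up a median of 1.32% of a member well's counts (range 0.512 to 4.83%). The members nearest the limit had 10 of 1953, 3 of 556 and 12 of 2162 counts (0.512, 0.540 and 0.555%), and the wells just below it had 9 of 1907, 7 of 1569 and 19 of 4262 (0.472, 0.446 and 0.446%). Among the other wells, 55 had at least 3 rule counts but less than 0.5%, 18 had at least 0.5% from fewer than 3 counts, and 3 were kept out by the upper follicle genes.

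**Figure D1:**
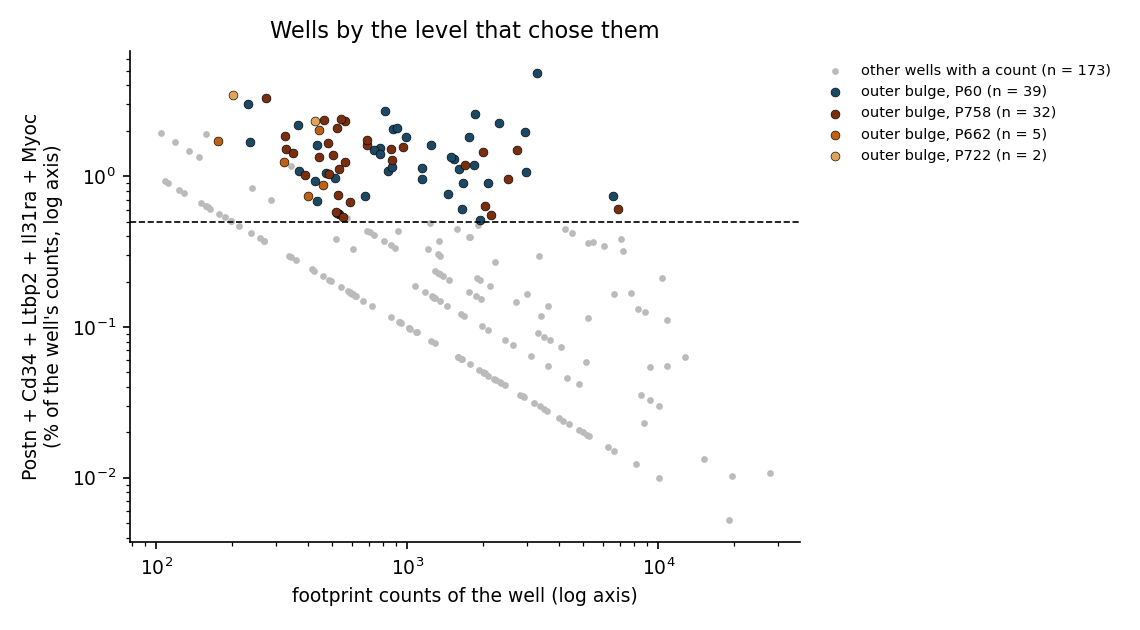
Share of a well's counts from Postn, Cd34, Ltbp2, Il31ra and Myoc (vertical log axis, %) against the well's total counts (horizontal log axis), with each member well coloured by animal and other wells with at least 1 such count in grey (173 wells; the 1655 at 0 cannot be drawn). The dashed line marks 0.5%; the 78 members lie between 0.512 and 4.83% and span 176 to 6927 counts.

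The label was checked against genes outside the rule and against other cell types. Krt15, a keratin of bulge and basal cells, was present in 75 of the 78 wells with 1666 counts. It was also present in 761 of 820 basal wells and in 1440 of all 1828 other wells. Its presence therefore cannot tell member wells from basal wells. Melanocyte markers were at 0 (6 of 6 genes), and T cell, Langerhans and endothelial markers had 4, 7 and 3 counts among all members, with 9 of 10, 6 of 8 and 6 of 7 genes at 0. Fibroblast markers had 13 counts, 6 of 9 genes being at 0, which is 0.0146% of the members' counts and 0.00352% of the other wells'. Inner bulge and companion layer markers had 31 counts (0.0349% against 0.0125%), and sebaceous and hair germ markers had 11 and 26. Of the 31, Krt6a gave 21, in 13 wells. Krt6a was called higher than in all other wells, where it was tested only through the members. It was not tested against basal or upper follicle wells. Krt19, often used as a bulge keratin, was at 0 in the member wells and had 8 counts over all wells, so it bears on neither class here. Basal markers, among them Krt5 and Col17a1, took 4.83% of the members' counts and 4.87% of the other wells'.

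Spinous markers took 0.418% of the members' counts and 2.98% of the other wells'. A single P60 well held 158 of the 179 Krt10 counts in members, 101 of 114 of Krt77 and 54 of 74 of Krt1. That well had 6606 counts, 49 of them from the rule genes. Without it, Krt10 in the P60 members was 151 CPM in place of 3123, beside 14488 in the other P60 wells.

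The first question was how often such cells were met at each age. They were 5 of 199 wells in P662 (2.51%, exact 95% binomial interval 0.821 to 5.77), 2 of 38 in P722 (5.26%, 0.644 to 17.7) and 32 of 627 in P758 (5.10%, 3.52 to 7.13). Among the young animals they were 39 of 981 in P60 (3.98%, 2.84 to 5.39), 0 of 13 in P57, which allows up to 23.1%, and 0 of 48 in P59, which allows up to 6.25%. These intervals and limits cover counting error only. The mean share was 4.29% ± 1.54 (SD, n = 3) in old and 1.33% ± 2.30 (SD, n = 3) in young animals, and the ages overlapped, since P60 lay above P662. The difference of 2.97 percentage points did not pass a two-sided exact permutation test (p = 0.2; 3 against 3 animals cannot go below 0.1). Depth moved with this share: among wells of at least 500 counts, P662 and P722 had no member, the means were 1.62% ± 2.81 and 1.28% ± 2.22 (SD, n = 3), and the exact permutation p was 1. When every well was thinned to 200 counts, which leaves shallower wells out, the means were 3.38% ± 3.75 and 0.711% ± 1.23 (SD, n = 3; exact permutation p = 0.4). The share in skin and the yield of trypsin and sorting cannot be told apart.

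**Figure D2:**
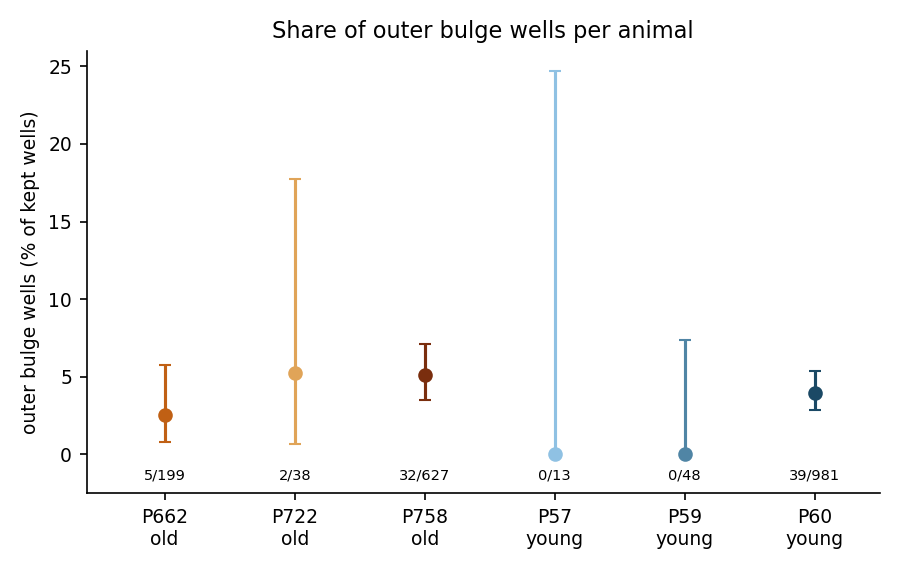
Outer bulge wells as a percentage of kept wells (vertical axis) in each of the 6 animals, with exact 95% binomial intervals as bars. The 3 old animals lie at 2.51, 5.26 and 5.10%, and of the young animals P60 lies at 3.98% while P57 and P59 had none of 13 and 48 wells.

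Gene levels were then compared between the member wells and 3 other classes of the same animals: all 1828 other wells, the 820 basal wells rich in Krt5 and Krt14 and poor in Krt1 and Krt10, and the 96 upper hair follicle wells rich in Krt79, Krt17 and Cst6. Counts were summed per class in P662, P758 and P60, the only animals with at least 5 member wells, and edgeR's quasi-likelihood test with the animal as a block was used throughout, with Benjamini-Hochberg adjustment at 0.05. A change is given as the fitted log2 ratio of member over comparator wells with its standard error. Against all other wells, 121 of 1552 tested genes rose (7.8%) and 110 fell (7.09%). Against basal wells, 114 of 1069 rose (10.7%) and 117 fell (10.9%), and against upper follicle wells 102 of 777 rose (13.1%) and 95 fell (12.2%). The 3 comparisons share the member sums and are not independent. Of the 121 genes that rose against all other wells, 94 passed the filter on low counts only through the member wells (166 CPM in at least 2 sums), and such genes had to be high there to be tested. All 121 were seen in at least 10 member wells (median 22).

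The number of calls moved with the animals used. Against all other wells, 42 genes passed without P60, 44 without P758 and 538 without P662. Against basal wells these counts were 51, 21 and 479. Against upper follicle wells 0 passed without P60 (45 at an unadjusted p under 0.05), 85 without P758 and 253 without P662. The P662 members held the fewest counts of the 3, and without that animal 225 of the 231 genes called against all other wells passed again in the same direction. Without the deepest P758 well, chosen after the data were seen, 132 genes rose and 141 fell against all other wells, 131 and 141 against basal wells, and 112 and 71 against upper follicle wells; 226 of the 231, 219 of the 231 and 164 of the 197 calls were kept, and none turned. The normalization of the thin P662 sum moved its ratio to the other wells by -1.35 log2 units against plain library sizes; with plain sizes, 226 of the 231 calls and their directions were kept, none turned, and 150 genes rose and 116 fell.

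Of 28 transcription factors known from the bulge and hair follicle, 12 were tested against all other wells; 7 rose and 1 fell, with a median log2 ratio of 1.47, where all tested genes had -0.09. Of the 7, 6 passed the filter only through the member wells, so that this count and median describe the tested genes and support nothing beyond them. Sox9, which hair follicle stem cells need for their upkeep, was at 1662 CPM in the P662, 476 in the P758 and 681 in the P60 members. In the other wells it was at 58.2, 55.6 and 86.2 CPM, so that the members were higher in all 3 animals and the classes did not overlap. The fitted log2 ratio was 3.04 ± 0.405 (SE; edgeR, Benjamini-Hochberg adjusted p = 5.67e-12). Nfatc1, a calcineurin-regulated factor tied to stem cell quiescence, was at 1108, 1011 and 738 CPM in members and 102, 73.0 and 95.6 in other wells, again without overlap. Its log2 ratio was 3.22 ± 0.395 (edgeR, Benjamini-Hochberg adjusted p = 6.05e-14).

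Lhx2, a LIM-homeodomain factor of the hair germ and bulge, had the largest ratio of the 12. It had 34 counts in 24 member wells and 11 counts over all other wells of the same animals. Its member levels were 0 CPM in P662, 268 in P758 and 473 in P60, against 14.5, 2.32 and 3.43 in the other wells, so that only P662, with 1805 counts, went the other way. The log2 ratio was 6.63 ± 0.775 (edgeR, Benjamini-Hochberg adjusted p = 2.75e-15). Tbx1, a T-box factor, had 27 counts in 19 wells and a log2 ratio of 5.72 ± 0.78 (edgeR, adjusted p = 1.81e-11), with P662 at 0 as well. Foxp1 (1.97), Nfib (1.52) and the vitamin D receptor gene Vdr (1.43) also rose. Gata3, a factor of the inner root sheath and of differentiating epidermis, fell by 1.53 on the log2 scale, with 0, 268 and 397 CPM in members against 727, 838 and 892 in other wells.

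The smaller of these changes rested on both deeper animals. Without P60, the adjusted p (edgeR) was 0.774 for Nfib, 0.0637 for Vdr and 0.422 for Gata3; without P758 it was 0.904, 0.554, 0.749 and, for Nfatc1, 0.0541. Lhx2 and Tbx1 were not tested without either animal. Sox9 kept its call against all other wells with any of the 3 left out. Against basal wells, Sox9 (3.42), Nfatc1 (3.11), Nfib (1.40), Foxp1 (1.95) and Vdr (1.23) rose. Lhx2 had a single count in all basal wells of these animals against 34 in the members, a pooled CPM ratio of 678 with a counting interval of 114 to 27547. Most of these rises were lost in some setting. By DESeq2 the adjusted p was 0.138 for Lhx2 and 0.103 for Nfib. Without P758 (edgeR) it was 0.0798 for Nfatc1, 0.622 for Nfib and 0.170 for Vdr. With no filter (edgeR) it was 0.291 for Nfib, 0.0866 for Foxp1 and 0.582 for Vdr. Gata3 (-1.36), Klf5 (-1.41) and Zfp36l2 (-1.51) passed on the lower side. None of these 3 passed without P60 (edgeR adjusted p = 0.207, 0.332 and 0.611, Zfp36l2 at -0.74) or without P758 (0.53, 0.429 and 0.215), and by DESeq2 Klf5 and Zfp36l2 had 0.0654 and 0.104. Of 7 listed factors tested against upper follicle wells, Nfatc1 (1.43, edgeR adjusted p = 0.0237) and Nfib (1.33, edgeR adjusted p = 0.0468) passed on the higher side. Sox9 and Vdr were tested there and did not pass in either direction. Lhx2, Foxp1 and Tbx1 were not tested there. Nfatc1 did not pass without P60 (edgeR adjusted p = 0.246), without P758 (0.245), by DESeq2 (0.179), with no filter (0.416) or at 500 counts per well (0.0546). Nfib did not without P758 (0.411), by DESeq2 (0.477), with no filter (0.562) or with plain library sizes (0.063).

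Of 17 tested genes of the surface and receptor list, 6 rose and 0 fell against all other wells, and the median log2 ratio of -0.07 was near that of all tested genes (-0.09). All 6 were tested only through the member wells. Lgr5, the R-spondin receptor that marks the lower bulge and hair germ, had 554, 297 and 643 CPM in members against 43.6, 2.32 and 12.0 in the other wells. The members were higher in each animal, and the log2 ratio of 5.60 ± 0.636 (edgeR, Benjamini-Hochberg adjusted p = 4.00e-16) was the largest rise among genes with at least 20 counts that moved the same way in all 3. The 45 counts lay in 16 wells, 18 of them in 1 P60 well. Its relative Lgr4 rose too (2.37), seen at 1108, 327 and 492 CPM against 58.2, 61.4 and 99.5. In contrast, Lgr6, the family member of the upper follicle and interfollicular epidermis, fell against basal wells (-1.70 ± 0.546; edgeR adjusted p = 0.0116).

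Fgfr1, a fibroblast growth factor receptor, was at 1662, 654 and 624.5 CPM in members and 72.7, 35.9 and 34.3 in the other wells, without overlap (log2 ratio 4.07 ± 0.395; edgeR adjusted p = 5.10e-22). Fgfr2 went the other way against basal wells (-1.35; edgeR adjusted p = 0.0151), with 1662, 238 and 378 CPM in members against 883, 753 and 978, and P662 on the high side. Fgfr2 rose against upper follicle wells (3.06). The Wnt receptor genes Fzd2 (4.55), Fzd7 (2.50) and Fzd1 (3.81) and the immunomodulatory surface gene Cd200 (4.03), which had 17 counts in 12 member wells, all rose against the other wells. Cd200 and Fzd2 had no count in the P662 members and were not tested without P758 or P60. Itga6, the laminin-binding integrin of the hemidesmosome, fell against basal wells (-1.58; edgeR adjusted p = 0.000549); without P60 its adjusted p was 0.21 and without P758 0.251. For Fgfr2 these were 0.374 and 0.629, and for Lgr6 0.188 and 0.295, with 0.128 for Lgr6 by DESeq2. Notch3 (-2.67) and Notch2 (-1.42) fell against upper follicle wells; Notch2 had an adjusted p (edgeR) of 0.174 without P758 and 0.0946 without the deepest P758 well.

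Of the 33 listed ligands and antagonists of the Wnt, BMP, TGF-beta and FGF pathways, 8 were tested against all other wells. Of these, 7 passed the filter of 166 CPM only through the member wells, where they had to be high to be tested, so the count of 7 higher and 0 lower is no support for a shift of the list. Dkk3, of the Dickkopf family, had 554, 476 and 454 CPM in members against 0, 11.6 and 15.9 in the other wells, a log2 ratio of 5.06 ± 0.61 (edgeR, Benjamini-Hochberg adjusted p = 1.90e-14). Its 41 counts came from 27 wells, with at most 4 in any of them. Sfrp1, a secreted Wnt inhibitor, had 0, 476 and 416 CPM against 14.5, 40.6 and 35.6 (3.46). Grem1, a BMP antagonist, had 19 counts in 16 member wells and 8 counts in all other wells of these animals (6.28). Fst, the activin antagonist follistatin, had 554, 446 and 397 CPM against 43.6, 19.7 and 89.2 (2.99).

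The latent TGF-beta binding proteins Ltbp1 (4.21), Ltbp3 (2.55) and Ltbp4 (1.26), which store TGF-beta in the matrix, rose as well. Ltbp4 was the weakest, at 1108, 1160 and 1325 CPM against 189, 397 and 637, and its adjusted p (edgeR) was 0.634 without P60 and 0.882 without P758. For Ltbp3 it was 0.0782 without P758. Dkk3 and Fst kept their calls in each case, and Sfrp1, Grem1 and Ltbp1, at 0 in P662, were not tested without P60 or P758. Against basal wells 5 of 6 tested genes of the list rose, and against upper follicle wells 5 of 6. Of these, 4 and 5 were tested only through the members. The gene that did not pass against upper follicle wells was Fst, which was also on the list of upper follicle markers used here. By DESeq2, Ltbp1 and Ltbp3 had adjusted p-values of 0.0961 and 0.11 against upper follicle wells. Sfrp1 had 38 counts in members and none in the upper follicle wells, at least 22.0-fold higher when the latter are set to 3 counts over the group. Dkk3 had 1 count there against 41, a pooled CPM ratio of 71.4 with a counting interval of 12.1 to 2887. As a share of all counts, the 33 genes together took 0.332, 0.526 and 0.528% in members of P662, P758 and P60, against 0.0742, 0.118 and 0.167% in the other wells.

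Of 12 listed genes of the Hedgehog pathway, 4 were tested against all other wells, and all 4 were tested only through the member wells. That they passed on the higher side is therefore a description of these genes and no support for the pathway. Boc, a Hedgehog co-receptor, had 0, 833 and 662.4 CPM in members against 87.3, 80.0 and 90.5 (2.95 ± 0.388; edgeR adjusted p = 3.29e-12), in 36 member wells. Gas1, another co-receptor, had 554, 238 and 322 CPM against 0, 40.6 and 31.7 (3.08). Ptch1, the receptor and a transcriptional target of the pathway, had 554, 297 and 114 CPM against 72.7, 31.3 and 43.3 (2.21), and the transcription factor gene Gli3 rose by 2.59. In P758 and P60 the members were higher for all 4 genes, while for Boc P662 was at 0. Boc and Ptch1 were not tested without P758, nor Boc without P60. With the stricter rule of 5 counts and 1%, Ptch1 had an adjusted p (edgeR) of 0.175. Against basal wells Boc, Gas1 and Ptch1 passed, and against upper follicle wells Boc and Gas1, all again tested only through the members. The latter were lost by DESeq2 (adjusted p = 0.285 for Boc and 0.121 for Gas1), and Boc with no filter on low counts (edgeR adjusted p = 0.196).

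**Figure D3:**
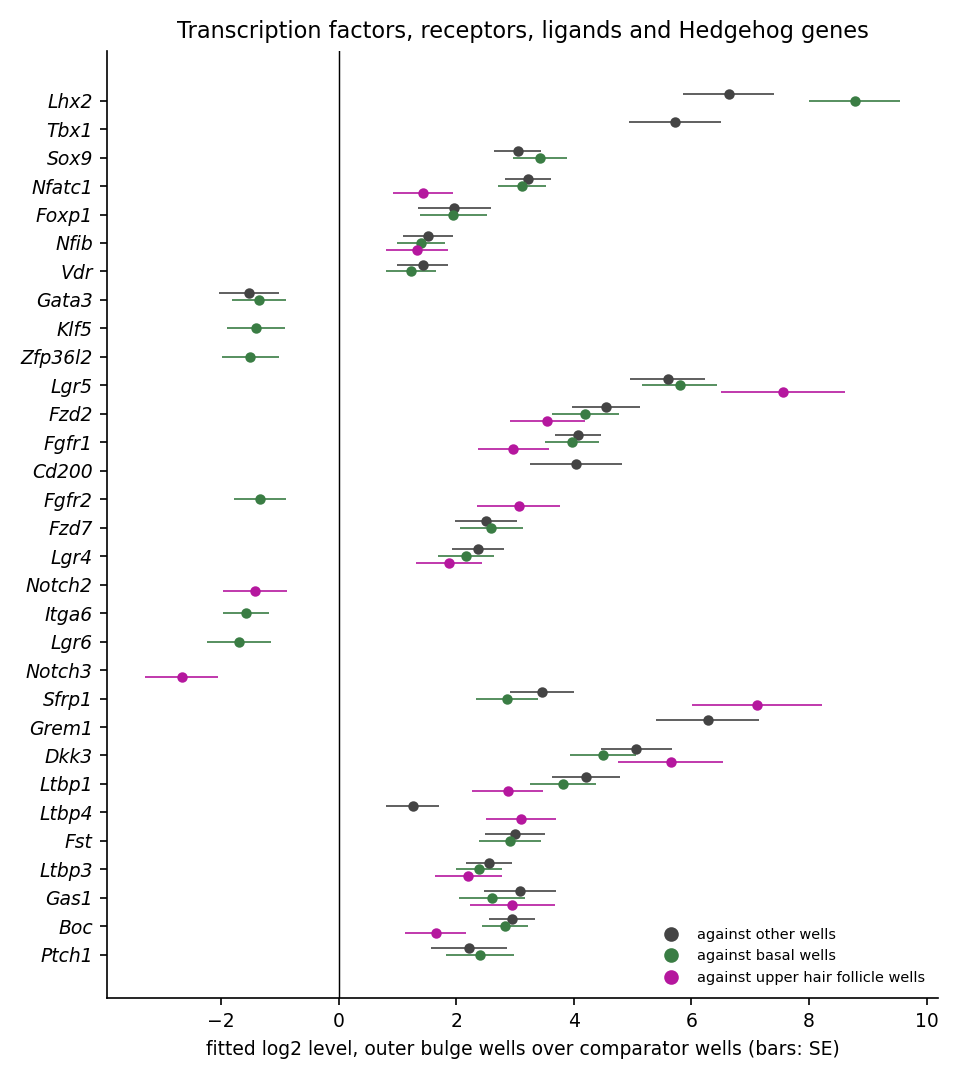
Fitted log2 ratio (horizontal axis) of member wells over all other, basal and upper hair follicle wells, with SE bars, for transcription factors, receptors, antagonists and Hedgehog genes. Lhx2 and Lgr5 lie far to the right of 0 against the other wells (6.63 and 5.60), while Gata3 lies to the left (-1.53).

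The matrix of the niche was tested with 17 of 41 listed genes, of which 8 rose and 1 fell against all other wells; 7 of the 8 were tested only through the member wells. Ccn2, the connective tissue growth factor and a known YAP/TEAD target, had 554, 1516 and 1022 CPM in members against 0, 12.7 and 43.7 in other wells. Members were higher in all 3 animals (5.41 ± 0.461; edgeR, Benjamini-Hochberg adjusted p = 3.37e-28), in 30 wells, 25 of the 106 counts coming from 1 P758 well. Fbln1, the matrix glycoprotein fibulin-1, had 1108, 803 and 567.8 CPM against 14.5, 6.95 and 18.9 (5.51 ± 0.485; edgeR adjusted p = 1.35e-26). Hspg2, the heparan sulfate proteoglycan perlecan, was at 554, 951 and 965 CPM against 189, 125 and 117 (2.76), and Ecm1 (2.63), Col12a1 (2.83) and Sparc (2.20) also rose. Hmcn1, a giant fibulin-family protein outside the list, had 2216, 1487 and 1684 CPM against 14.5, 56.8 and 107 (4.36).

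Not all matrix genes followed. Smoc2, a calcium-binding matricellular protein, fell against other wells (-1.70; edgeR adjusted p = 0.0279), with 0, 238 and 75.7 CPM against 175, 262 and 641. Against basal wells 8 of 16 tested matrix genes rose and 4 fell, namely Smoc2 (-2.44), Igfbp3 (-1.93), Thbs2 (-1.48) and Col16a1 (-1.38), a median of 0.82. Against upper follicle wells 7 of 8 rose, all 7 tested only through the members, among them Col12a1 with 92 counts against 1 (pooled CPM ratio 160, counting interval 28.0 to 6393) and Thbs1 with 75 against 1 (131, 22.7 to 5224). Ccn2 and Fbln1 kept their calls against the other wells with any animal left out; Ecm1 had an adjusted p (edgeR) of 0.111 without P758, Thbs1 of 0.168 against upper follicle wells without P60, and Col12a1 was not tested without P60 or P758.

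Basement membrane and hemidesmosome genes were called mainly against the upper follicle wells. Against all other wells 2 of 17 rose (Col18a1, 2.33, and Col4a2, 1.87), and against basal wells 1 rose and 1 fell. Against upper follicle wells 10 of 12 rose and 0 fell, 6 of the 10 tested only through the members. Col17a1, the hemidesmosomal collagen known for holding stem cells in place, had 6648, 10823 and 10333 CPM in members, 10968, 10871 and 10007 in basal wells and 465, 696 and 1284 in upper follicle wells. The log2 ratio was -0.42 against basal wells (edgeR adjusted p = 0.536) and 3.50 ± 0.558 against upper follicle wells (edgeR adjusted p = 1.98e-08). Dst, which links the hemidesmosome to keratin, gave -0.03 and 2.21. Without P60 the adjusted p against upper follicle wells was 0.118 for Col17a1 and 0.196 for Dst.

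Among keratins, Krt15 did not pass the test between members and basal wells. It was at 22161, 12280 and 22880 CPM in the members of P662, P758 and P60, at 7803, 10331 and 22575 in basal wells and at 4189, 6971 and 17332 in all other wells. The log2 ratio was 0.21 ± 0.397 against basal (edgeR adjusted p = 0.777), 0.73 against all other (edgeR adjusted p = 0.42) and 1.92 against upper follicle wells (edgeR adjusted p = 0.000634), the last with 0.246 without P60 and 0.0809 without P758. Krt5 rose against upper follicle wells (3.25), at 31025, 22300 and 18130 CPM against 930, 2948 and 2912, with an adjusted p of 0.126 without P60. Krt10 (-4.69), Krt77 (-4.36) and Krt1 (-4.16), keratins of the suprabasal layers, fell against all other wells. Krt10 was at 0, 416 and 3123 CPM in members and 32046, 23366 and 14488 in the others. These genes split the classes without overlap, and 158 of the 179 Krt10 counts came from the P60 well named above; without P662 the adjusted p (edgeR) was 0.702 for Krt10 and 0.479 for Krt77, and without P758 0.0749 and 0.0661.

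Besides Krt6a, named above, the only keratin called higher against all other wells was Krt24, a type I keratin with the larger rise. It had 0 counts in P662, 387 CPM in P758 and 624.5 in P60, against 0, 18.5 and 4.29 in the other wells, from 46 counts in 17 member wells. The log2 ratio was 5.77 ± 0.648 against all other wells (edgeR adjusted p = 1.82e-16) and 5.98 against basal wells (edgeR adjusted p = 2.25e-18). Krt24 lies on chr11:99279959-99285262 of GRCm38.p6, minus strand. Its 250 bases before the annotated RefSeq start (chr11:99285263-99285512, minus strand) are shown because the gene rose together with Nfatc1. Capitals mark the letters GGAAAA, the core to which NFAT factors bind, found 116 bases before the start.
Krt24 promoter: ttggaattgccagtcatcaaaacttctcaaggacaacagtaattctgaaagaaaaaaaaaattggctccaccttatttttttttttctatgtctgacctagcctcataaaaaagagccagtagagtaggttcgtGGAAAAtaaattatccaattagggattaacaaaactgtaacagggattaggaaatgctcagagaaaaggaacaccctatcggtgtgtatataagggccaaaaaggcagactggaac
The letters GGAAAA, read on both strands, are a common match: 20.4% of 32851 RefSeq promoters of this length hold them, as do 21.1% of the 1240 tested genes with a promoter entry, 15.96% of the higher genes (15 of 94) and 21.1% of the lower genes (19 of 90). GGAATG, the core bound by TEAD factors, is held by 12.6% of the same promoters, 14.03% of tested genes, 17.0% of the higher genes (16 of 94) and 11.1% of the lower (10 of 90). The promoters of Lhx2 were also searched for GGAAAA and are not shown: the first held 0 sites and the second held 1. Such matches describe letters in these windows only.

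Immediate early genes were lower in the members than in all other and basal wells, but not as a list against upper follicle wells. Of 14 tested genes of the AP-1 and immediate early list, 0 rose and 11 fell against all other wells (median -1.87), and against basal wells 0 rose and 13 of 15 fell (median -2.12). Egr1, a zinc finger factor induced within minutes of a stimulus, was at 554, 892 and 189 CPM in members and 3593, 1905 and 672 in other wells. Each animal's members lay below its other wells, although the animals overlapped, and the log2 ratio was -1.79 ± 0.49 (edgeR, Benjamini-Hochberg adjusted p = 0.00328). Jun, of the AP-1 complex, was at 1108, 773 and 94.6 CPM against 2953, 1525 and 513 (-1.76; edgeR adjusted p = 0.00532), and Junb gave -1.80. These 3 calls rested on P60 and P758: without P60 the adjusted p (edgeR) was 0.322 for Egr1, 0.54 for Jun and 0.54 for Junb, and without P758 0.147, 0.199 and 0.411. They were also lost without the animal block (0.161, 0.274 and 0.212) and with no filter (0.128, 0.127 and 0.117). Against upper follicle wells 11 genes of the list were tested, with a median log2 ratio of 0.34. There 1 gene rose (Nr4a1) and 1 fell (Egr2), and Egr1 (-0.13), Jun (0.34) and Junb (0.70) did not pass. Egr2 had 67 counts in the upper follicle wells and 0 in members (at least 12.8-fold lower), and was tested only through the upper follicle wells.

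The immediate early list took 1.39% of the member counts in P662, 0.523% in P758 and 0.185% in P60, beside 2.95, 1.55 and 0.538% in the other wells.

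Footprints of replication-dependent histones and of mitotic genes were scarce in the members beside all other and basal wells. None of the 55 histone genes and 24 listed proliferation genes passed the filter to be tested against upper follicle wells. Of 14 tested histone genes 13 fell against all other wells, and of 21 tested against basal wells all 21 fell. Of these, 13 and 20 passed the filter only through the comparator wells, where they had to be high to be tested, so the counts are a description. H2bc3, a core histone gene made in S phase, had 0 counts in the members and 972 in the other wells of these animals, at least 8.76-fold lower. H2bc15 had 0 against 659 (at least 5.94-fold lower), and H4c8 had 2 against 1381, a pooled CPM ratio of 0.0535 (0.00648 to 0.194). The near-identical histone genes can share reads, so single symbols among them are uncertain. Together the 55 histone genes took 0.0554, 0.113 and 0.0795% of counts in members of P662, P758 and P60 and 0.118, 0.717 and 1.07% in the other wells. No member well reached 1% of histone counts, which allows a share of up to 3.85%, whereas 69 of 820 basal wells did (8.41%, 6.61 to 10.5).

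Top2a, the DNA topoisomerase of dividing cells, had 4 counts in members and 2278 in the others (-3.81 ± 0.748; edgeR adjusted p = 8.80e-06), at 0, 29.7 and 56.8 CPM against 58.2, 338 and 850. In total 4 of 7 tested proliferation genes fell and 0 rose against all other wells, and 8 of 8 fell against basal wells. Mki67 fell (-2.01; edgeR adjusted p = 0.0114) but not in every animal: it had 3 counts in the P662 members (1662 CPM) against 14.5 CPM in the other P662 wells, and its adjusted p was 0.994 without P60, 0.781 without P758 and 0.836 by DESeq2. DESeq2 did not call H2bc3 (adjusted p = 0.398), H2bc15 (0.151) or H4c8 (0.142) either. Cdkn1a, a cell cycle inhibitor, had 2 counts against 467 (pooled CPM ratio 0.158, 0.0191 to 0.575). Neither H2bc3 nor Top2a was tested without P60 or without P758.

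**Figure D4:**
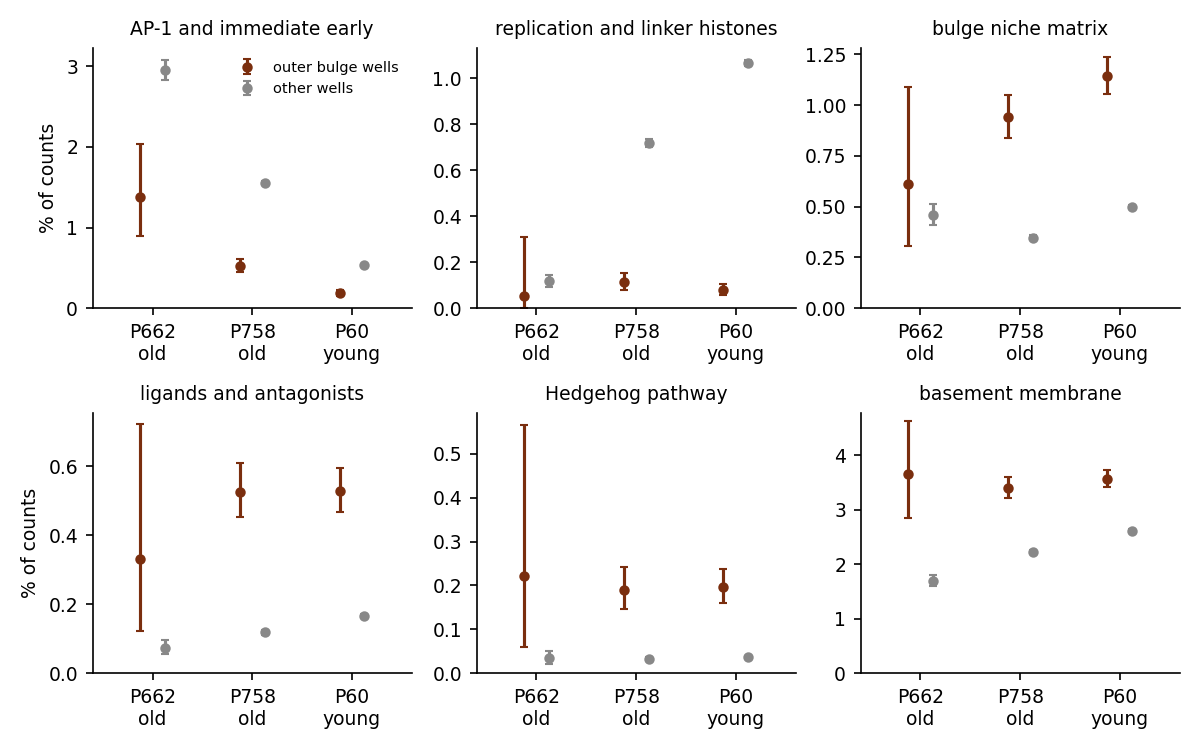
Summed counts of gene lists as a percentage of all counts (vertical axes, exact 95% intervals) in member and other wells of P662, P758 and P60. Member wells lie above the other wells for the ligand and antagonist list (0.526 against 0.118% in P758) and below for the immediate early list (0.523 against 1.55%) and histones (0.113 against 0.717%).

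Cxcl14, a chemokine of the epidermis, rose against all other wells, at 554, 1576 and 2063 CPM against 145, 197 and 522, a log2 ratio of 2.30 ± 0.475 (edgeR adjusted p = 2.83e-05). It was seen in 50 member wells, and it also rose against basal (1.66) and upper follicle wells (5.77). Il1r2, the decoy receptor for interleukin-1, fell (-2.41). Ly6d (-2.97) and Lypd3 (-1.85), of the Ly6 family, fell with 0 of 3 tested members of the family rising. Ly6a, which encodes Sca-1, had 4 counts in 3 member wells, or 45.0 CPM, against 152 in the other wells, and was too rare to be tested. Without P60 the adjusted p (edgeR) was 0.144 for Cxcl14 and 0.267 for Ly6d, and without P758 0.646 and 0.0912.

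B2m, the light chain of class I molecules, fell against all other wells (-1.27; edgeR adjusted p = 0.0481), at 1662, 803 and 814 CPM against 1106, 1802 and 2277, with P662 the other way and an adjusted p of 0.879 without P60 and 0.807 without P758. In the antigen presentation list 2 of 9 tested genes fell and 0 rose. The desmosome list had 2 of 16 lower and the translation factor list 1 of 15 lower. None of 6 glycolysis, 10 ribosomal protein and 7 mitochondrially encoded genes passed in either direction (edgeR); the 10 ribosomal genes had a median of -0.47.

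Several of the genes with the largest rises and falls against the upper follicle wells had few or no counts in 1 class. S100a4, a calcium-binding protein, had 47 counts in members and none there (at least 27.3-fold higher), and Lgr5 had 45 and none (at least 26.1-fold higher). Krt23, a keratin, had none in members and 29 there (at least 5.55-fold lower), and Aadac, an esterase, none and 69 (at least 13.2-fold lower). Spink5, a protease inhibitor of the cornifying layers, had 3 counts against 183, a pooled CPM ratio of 0.0285 (0.00583 to 0.0847), and Defb6, a beta-defensin, had 5 against 259. Of the desmosome list 4 of 14 fell (Dsc1, Dsg1a, Pkp1 and Dsp). Dsp, the desmosomal plaque protein, had 8310, 10317 and 12396 CPM in members against 24169, 20140 and 23463 (-1.16; edgeR adjusted p = 0.0416), without overlap; its adjusted p was 0.168 without P60 and 0.425 without P758. No gene passed in this comparison without P60, and Krt23 and Aadac were not tested without P662.

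The 12 largest rises and 12 largest falls against all other wells are shown plate by plate as a description only. These genes were chosen on the sums of these wells, and their signs follow largely from that choice. On the 5 plates of P758 and P60 with the most member counts, the 12 genes with the largest rise against all other wells were higher in members on every plate, except Megf6 on 1 young plate (-0.76). The 12 genes with the largest fall were lower on all 5. Plates of 1 animal share its skin and are not further replicates.

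**Figure D5:**
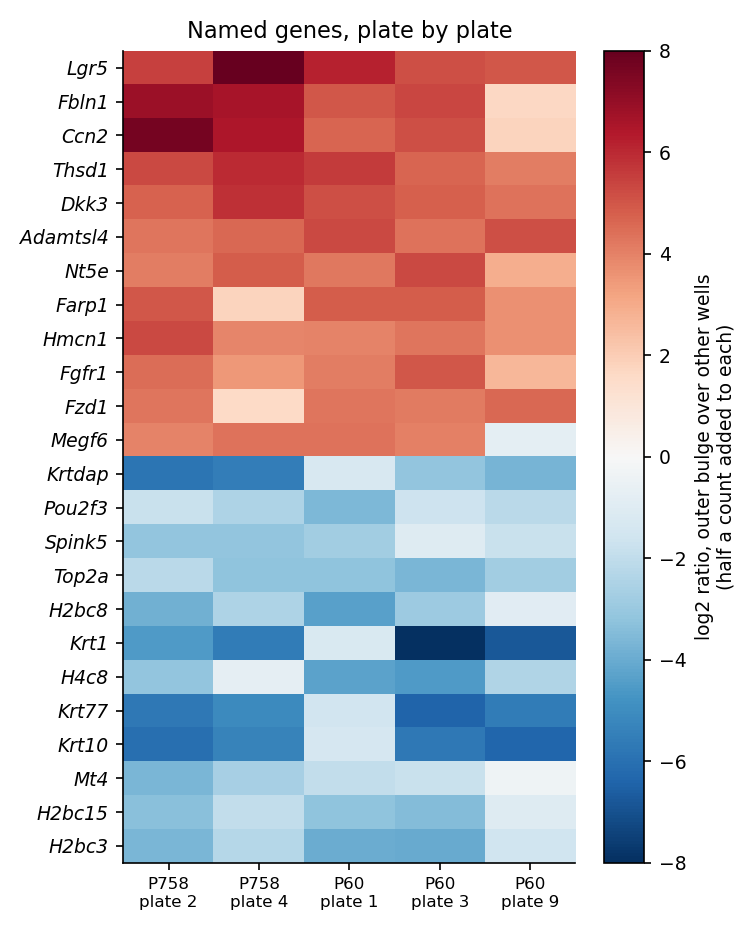
Log2 ratio of member over other wells (colour scale, 0.5 counts added to each sum) for the 12 genes with the largest rise and the 12 with the largest fall against all other wells, on 2 old plates of P758 and 3 young plates of P60. The genes were chosen on sums that hold these wells, so the signs are no further evidence; Megf6 on the third young plate is at -0.76, and the falls run from -0.34 for Mt4 to -7.99 for Krt1.

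The 2 member wells of P722 and the Sca-1-negative plate took no part in these fits. The 121 genes that rose took 3.17% of the P722 members' 631 counts (exact interval 1.95 to 4.85), against 1.31% in the other P722 wells. The 110 genes that fell took 3.01% against 8.18% in P722. Gene by gene, 16 of the 73 rising genes with a count in P722 were higher in its members and 57 were lower, as most were at 0 there. Of 92 falling genes with a count, 80 were lower. With 631 counts in these members a gene at 0 counts as lower in either set, so the 80 of 92 is no support for the falls.

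Within the members, P758 and P60 could be set side by side, but with a single young animal this allows no test of age. Of 386 genes with at least 20 counts, 63 had a ratio of P758 to P60 whose counting interval excluded 1, and 37 of these lay on the same side in the other wells. Krt14, the type I partner of Krt5, was at 8087 CPM in P758 and 2025 in P60, a ratio of 3.99 (3.18 to 5.04), where the other wells gave 1.19; 89 of its 272 P758 counts lay in the deepest well, without which the ratio was 3.38 (2.65 to 4.34). In the remaining old members it was at 15512 (P662) and 42789 (P722). Plate by plate the old members ranged from 2608 to 42789 CPM and the young members from 223 to 2464, so that the 5 old plates lay above the 3 young ones, the lowest old value resting on 2 counts. Krt5 was closer, at 22300 and 18130 CPM (ratio 1.23, 1.12 to 1.35). Krt14 has close paralogs among type I keratins, and the sources used here do not say how shared reads were counted.

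Jun was 8.17 times as high in the P758 as in the P60 members (3.09 to 27.2), where the other wells gave 2.97, and Egr1 4.71 times, where the other wells gave 2.84. Single wells carried much of this: 15 of the 26 Jun counts and 15 of the 30 Egr1 counts of P758 lay in 1 well each. Both wells passed the rule on Postn alone and near its limit. They had 13 of 2037 counts (0.638%) for the Jun well and 12 of 2162 (0.555%) for the Egr1 well. Without those wells the ratios were 3.68 (1.18 to 13.5) for Jun and 2.52 (1.06 to 6.27) for Egr1. On the 2 P758 plates with the most member counts Jun was at 201 and 1598 CPM, and Egr1 at 352 and 1671 CPM. On the other side, Akap9, an anchoring protein of the Golgi and centrosome, had 2 counts in P758 and 25 in P60 members, a ratio of 0.126 (0.0144 to 0.504), while the other wells gave 1.02. Pdzd2, a PDZ-domain protein, had 6 and 39 counts (0.242, 0.0836 to 0.575; other wells 1.04), in 5 and 20 wells. Krt15 was lower in P758 in members (0.537, 0.479 to 0.601) and in other wells (0.402). Age and animal cannot be told apart for these genes.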

How the data were processed

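The deposited tables hold counts of ribosome footprints per gene and well. The submitters' processing notes name the build GRCm38.p6 and the tools featureCounts, UMI-tools, STAR, Bowtie2 and fastp; their versions and settings were not given in the sources used. Wells with at least 100 counts were kept (1906 of 1924), and depth is given in the report. The labels call plates technical replicates; treating plates that share a postnatal day as 1 animal is an assumption of this work. The nuclease test plate was not used. The member rule, the gene lists and the markers were chosen with earlier results of these data known.

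Member and comparator counts were summed per animal and tested with edgeR 4.0.16 in R 4.3.3 (TMM, filterByExpr, robust quasi-likelihood, animal as a block, Benjamini-Hochberg 0.05). The 8 genes of the rule, and for basal wells also Krt5, Krt14, Krt1 and Krt10, were left out. The biological coefficient of variation was 0.229, 0.209 and 0.288 against other, basal and upper follicle wells. Basal wells had Krt5 and Krt14 at 2% or more and Krt1 and Krt10 below 1%; upper follicle wells had at least 3 counts and 1% of Krt79, Krt17 and Cst6.

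Genes were considered for naming among called genes with at least 20 counts and the same sign in every animal. These were the 12 largest rises and falls against all other wells and the 8 against the other classes. All called transcription factors, receptors and ligands were added, as were the 3 tested members of each other list with the most counts. The text names only part of this set, and the choice within it followed no stated rule. Among the 12 rises, Thsd1, Adamtsl4, Nt5e and Farp1 were not discussed. Among the 12 falls, Krtdap, Pou2f3 and H2bc8 were not. These genes are part of the plate-by-plate plot of log2 ratios. Krt24, Krt6a, Nr4a1, Smoc2, Gli3, Hspg2, Sparc, Igfbp3, Thbs2, Col16a1, Col18a1, Col4a2, Il1r2 and the genes compared between P758 and P60 were named after their values were seen. Pooled ratios of genes with 1 to 3 counts carry exact counting intervals. DESeq2 1.42.0 and limma 3.58.1 served as alternatives, and the scripts were tested on simulated data. Promoters were read from RefSeq by symbol (21750 of 22416 symbols matched a RefSeq gene). Promoters on chromosome 18 were left out of the letter counts.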

Additional observations from a re-analysis of the deposited data

Results flagged for a closer look

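On the plate of cells sorted without Sca-1, which mixed young and old skin and entered no comparison, 11 of 52 wells passed the outer bulge rule (21.2%, exact interval 11.1 to 34.7). This drew attention because it is data outside the main measurement and lies above the 4.09% (3.25 to 5.08) of the 10 plates not sorted by Sca-1. These 11 wells had a median of 224 counts, with Postn at 18797 CPM and Krt15 at 11278 CPM, and Ly6a, the gene of Sca-1, was at 0 in both the passing and the other wells of the plate. The 121 genes that rose in the outer bulge wells of P662, P758 and P60 took 7.63% of the counts of these wells (6.65 to 8.71) and 1.73% of the plate's other wells (1.53 to 1.96); 76 of 106 with a count were higher. The 110 genes that fell took 1.05% (0.701 to 1.52) and 4.14%, and 76 of 88 were lower. The passing wells held 2660 counts and the other wells 14717, and a gene at 0 in the former counts as lower. The 76 of 88 is therefore no support for the falls. The parts of the sort and of the low depth in the share were not tested.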

How the results depend on the processing

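The number of genes called moved with the settings. Against all other wells 231 genes passed; 149 did without the animal block, 439 with wells of at least 500 counts, 524 with the rule at 5 counts and 1%, and 42 to 538 with 1 animal left out. It was 239 with no filter on low counts, 214 by DESeq2 and 219 by limma on plates, of which 110, 184 and 134 were among the 231. Against basal wells 231 passed; 106 did without the block, 140 by DESeq2, 415 at 500 counts, 533 under the stricter rule, 346 with no filter and 21 to 479 with 1 animal left out. Against upper follicle wells 197 passed; 123 did without the block, 107 by DESeq2, 192 at 500 counts, 226 under the stricter rule and 0 to 253 with 1 animal left out. The fits at 500 counts and under the stricter rule held only P758 and P60, because P662 had too few member wells, and tested 7112 and 7286 genes against all other wells where the full data tested 1552 (4606 and 4848 in place of 1069 for basal, 810 and 578 in place of 777 for upper follicle wells). Leaving out P662 alone gave 538, 479 and 253 calls among 7366, 4789 and 929 genes, so these settings cannot be told apart from the loss of P662. Without P60, 1026, 384 and 218 genes were tested, and without P758 1252, 580 and 556. The cause of the other changes was not tested. After the data were seen, the P60 well rich in Krt10 was left out (244, 230 and 205 calls), as was the deepest P758 well (273, 272 and 183), and plain library sizes were used (266, 245 and 200).

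Of the named genes, 1 reversed: Krt14 against upper follicle wells was 0.68 and became -1.21 under the stricter rule (the cause was not tested). The old minus young share ranged from 2.31 to 4.29 points with 1 animal left out, and was 0.344 at 500 counts. No paired analysis was possible because the replicate numbers of old and young plates are not shared. Depth limits P662, P722, P57 and P59 most.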
